A study of Mus musculus with 2 samples.

Results

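The insulin-like growth factor (IGF) genes examined here are the ligand genes Igf2 and Igf1, the receptor genes Igf1r and Igf2r, and the binding-protein genes Igfbp2, Igfbp3, Igfbp4, Igfbp5, Igfbp6 and Igfbp7. They were chosen by gene symbol, as the probe sets whose single annotated symbol is one of these names. All 10 genes were found, each with 1 probe set, among 19938 genes with a named probe set. The samples were mouse embryonic fibroblasts (MEFs), connective-tissue cells grown in culture from embryos, taken at 13.5 days post coitum. One culture carried MatDup.dist7, in which the distal part of chromosome 7 is present in duplicate from the mother and not from the father, and the other carried the reciprocal PatDup.dist7, with the paternal part in duplicate. The 2 cultures were otherwise labelled alike, were given serum-containing medium, and were each measured on 1 whole-transcript array. Whether a culture came from 1 embryo or a pool, the strain, the passage and the ends of the duplicated segment are not stated in the labels. With 1 array per genotype no difference could be tested against variation between cultures, so every difference below compares these arrays and not the genotypes as groups.

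IGF-II, the product of Igf2, is a growth factor of the fetus, and in most embryonic tissues its gene is read from the paternal chromosome only. IGF-I and IGF-II signal growth and survival through the tyrosine kinase receptor encoded by Igf1r. The receptor encoded by Igf2r, which also carries enzymes tagged with mannose-6-phosphate to lysosomes, takes up IGF-II for breakdown. Binding proteins hold the ligands outside cells and are cut by proteases, which frees the ligand. Of the 10 genes, Igf2 and Igf1r lie on chromosome 7 and the others on chromosomes 1, 5, 10, 11, 15 and 17.

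Igf2 is read from several starts, and its probe set gives 1 value that does not separate them. The starts are shown because this gene had the largest difference of the 10. RefSeq lists 4 starts for Igf2 on the minus strand of chromosome 7 (assembly GRCm38.p6). Each sequence below runs from 250 bases before a start to 50 bases after it, 5′ to 3′. CpG dinucleotides, where DNA methylation is placed, are in capitals. These windows are not shown as the site of the imprint of Igf2.
Igf2 start 1, chr7:142666767-142667066, minus strand: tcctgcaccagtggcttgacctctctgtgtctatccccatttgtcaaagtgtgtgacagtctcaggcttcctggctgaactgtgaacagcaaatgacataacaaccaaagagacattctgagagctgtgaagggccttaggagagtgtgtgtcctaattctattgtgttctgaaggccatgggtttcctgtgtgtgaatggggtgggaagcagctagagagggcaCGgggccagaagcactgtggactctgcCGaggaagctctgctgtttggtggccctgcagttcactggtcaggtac
Igf2 start 2, chr7:142661222-142661521, minus strand: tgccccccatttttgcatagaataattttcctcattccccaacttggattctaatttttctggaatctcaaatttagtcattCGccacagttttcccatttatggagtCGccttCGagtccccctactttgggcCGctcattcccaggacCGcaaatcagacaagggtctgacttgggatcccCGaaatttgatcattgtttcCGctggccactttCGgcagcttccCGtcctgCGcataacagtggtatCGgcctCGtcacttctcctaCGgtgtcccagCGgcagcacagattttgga
Igf2 start 3, chr7:142658755-142659054, minus strand: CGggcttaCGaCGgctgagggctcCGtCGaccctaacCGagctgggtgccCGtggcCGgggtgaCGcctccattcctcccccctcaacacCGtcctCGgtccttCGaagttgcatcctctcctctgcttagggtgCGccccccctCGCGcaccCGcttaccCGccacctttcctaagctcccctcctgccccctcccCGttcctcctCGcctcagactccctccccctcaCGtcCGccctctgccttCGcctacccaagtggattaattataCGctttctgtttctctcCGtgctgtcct
Igf2 start 4, chr7:142657447-142657746, minus strand: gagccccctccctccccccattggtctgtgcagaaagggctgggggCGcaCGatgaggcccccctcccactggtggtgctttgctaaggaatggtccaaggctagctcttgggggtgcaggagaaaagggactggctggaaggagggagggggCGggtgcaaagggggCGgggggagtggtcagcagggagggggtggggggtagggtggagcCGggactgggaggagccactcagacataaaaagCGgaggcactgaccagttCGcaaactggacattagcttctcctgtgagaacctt

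These windows held 2, 14, 24 and 7 CpG dinucleotides in that order. Over all 32851 RefSeq windows of 300 bases the median was 7 and the quartiles were 3 and 20, and 94.6% of windows held at least 1 CpG, a motif that reads CG on both strands. Start 1 is thus CpG-poor and start 3 CpG-rich. The probe set does not show which start was in use, and methylation was not measured on these arrays.

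Igf2 gave the largest excess in PatDup.dist7 of any of the 19938 genes. Its probe set read 7.48 intensity units for MatDup.dist7, compared with 1013 for PatDup.dist7. The MatDup.dist7 signal was 0.738% of the PatDup.dist7 signal, a raw ratio of 136. In rank within the array, the probe set stood at percentile 11.0 of the 35557 probe sets in MatDup.dist7 and at percentile 94.6 in PatDup.dist7. The log2 difference, always MatDup.dist7 minus PatDup.dist7 on the log2(intensity + 16) scale, was -5.45, or 43.8-fold. The MatDup.dist7 value lies near the bottom of the signal range, so the size is set largely by how low signals are treated: the log2 difference was -6.90 with a pseudocount of 1 and -3.91 with 64. Igf2 held first place toward PatDup.dist7 with each of these pseudocounts and under the other 5 alternatives for low signals, scaling and probe set choice. A value of 7.48 is a weak signal and does not show that the transcript was absent.

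A microRNA gene, Mir483, lies inside the span of Igf2 on the same strand, and the arrays hold a probe set for it. Its mature products are shown with the seed (bases 2 to 8) in capitals, as the short RNAs that this probe set is annotated to (RefSeq, GRCm38.p6).
mmu-miR-483-5p, chr7:142654968-142654989, minus strand: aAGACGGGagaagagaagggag
mmu-miR-483-3p, chr7:142654932-142654952, minus strand: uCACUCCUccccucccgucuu
The Mir483 probe set read 253 for MatDup.dist7 and 296 for PatDup.dist7, a log2 difference of -0.22. It therefore did not share the difference of the Igf2 probe set around it. Which RNA its probes detected, host transcript, hairpin or other sequence, is not stated in the annotation used. The arms have different seeds. Ins2, the insulin gene next to Igf2 and the other ligand gene of this stretch, had 63.2 and 52.5, a log2 difference of 0.21. It stood at percentiles 48.0 and 45.2 of the probe sets, under the signal filter given below. These weak signals do not show that Ins2 was expressed.

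**Figure D1:**
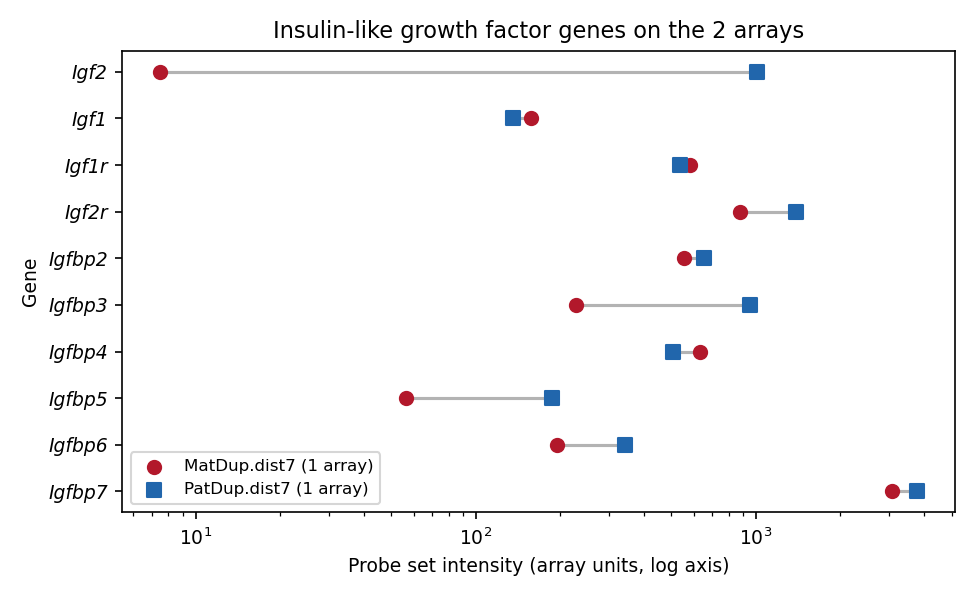
Probe set intensity (array units, log axis) of the 10 IGF genes for MatDup.dist7 (circles) and PatDup.dist7 (squares), 1 array each, with a line joining the pair. Igf2 spans 7.48 to 1013, Igfbp3 228 to 953 and Igfbp5 56.6 to 187, while the other 7 pairs lie within 2-fold.

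Across the 10 genes, 7 gave more signal in PatDup.dist7 and 3 gave more in MatDup.dist7. Of all 19938 genes, 48.6% gave more in PatDup.dist7, a share against which the side counts of the lists below also stand. This share includes genes under the signal filter given below, whereas most of the listed genes lay above it. At least 2-fold excess in PatDup.dist7 was seen for 3 of the 10 genes, Igf2, Igfbp3 and Igfbp5. The share among all 19938 genes was 3.16%. At least 2-fold excess in MatDup.dist7 was seen for 0 of the 10 genes, with no test run, and for 4.47% of all genes. The median log2 difference was -0.47 with Igf2 and -0.30 for the other 9 genes, against 0.02 for all genes. Genes above the signal filter described next had a median of -0.009. With median scaling the medians were -0.57 for the 10 genes and -0.06 for all genes. All 10 genes lay above the signal filter, an intensity of 66.4 on at least 1 array (12733 genes did), where 2.42% of genes had at least 2-fold excess in PatDup.dist7 and 2.74% the reverse. The genes were proposed with earlier results of these arrays known, so the count describes them and carries no weight as a test.

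A second measure of spread comes from genes with several probe sets. Probe sets of the same gene differed in their log2 difference with a standard deviation of 0.40 (642 genes above the filter, with 1722 probe sets). This holds no variation between cultures. Of the 10 genes, 5 had a difference larger than this value (Igf2, Igfbp3, Igfbp5, Igfbp6 and Igf2r), all higher in PatDup.dist7, and 5 a smaller one (Igf1, Igf1r, Igfbp2, Igfbp4 and Igfbp7). Among all genes above the filter, the median size of the difference, whatever its sign, was 0.35. Differences near 0.40 were thus common, and this count does not set the 10 genes apart.

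**Figure D2:**
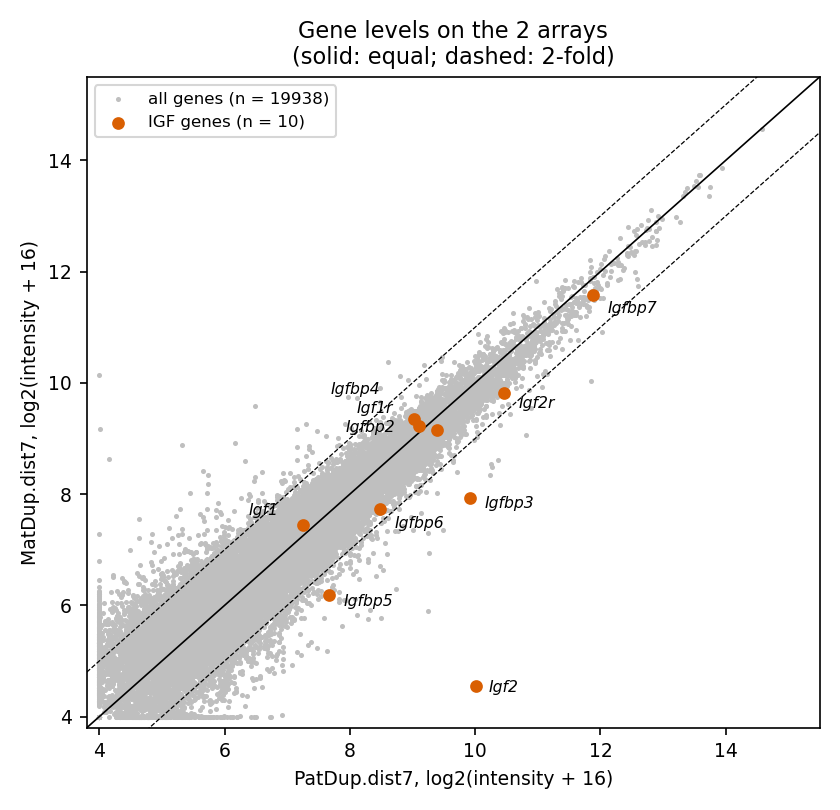
Level of every gene (grey, 19938 genes) on the PatDup.dist7 array (horizontal) and the MatDup.dist7 array (vertical), both as log2(intensity + 16), with the 10 IGF genes in orange; the solid line marks equal levels and the dashed lines 2-fold. Igf2 stands farthest below the lower dashed line, with Igfbp3 and Igfbp5 also below it and the other 7 genes between the lines.

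Igf1, the other IGF ligand gene, was almost level between the arrays. It read 158 in MatDup.dist7 against 136 in PatDup.dist7, a log2 difference of 0.20, and stood at percentiles 69.9 and 67.3 of the probe sets. The 2 ligand genes thus differed in opposite directions, that of Igf1 within the spread between probe sets.

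The receptor genes were well detected in both cultures. Igf1r, whose product passes the signal of both ligands, read 585 for MatDup.dist7 and 537 for PatDup.dist7 (log2 difference 0.12), at percentiles 90.6 and 89.4 of the arrays. Igf1r is on chromosome 7, at place 1063 of 2030 protein-coding genes in order along it, and Igf2 is at place 1994. The ends of the duplicated segment are not stated, so whether Igf1r lies within it was not tested. Igf2r, the uptake receptor for IGF-II, had 882 and 1390.3 (log2 difference -0.65, 1.57-fold higher in PatDup.dist7) and stood at percentiles 93.9 and 96.3. In order from the gene most in excess in PatDup.dist7, Igf2r took place 2031 of 19938. Igf2r is itself an imprinted gene, read mainly from the maternal chromosome 17 in mouse. Airn, the non-coding RNA read from the opposite strand of the Igf2r locus, had 25.5 and 89.4 (log2 difference -1.35), so both RNAs of the locus had the higher signal in PatDup.dist7. The size for Airn depends on its low MatDup.dist7 signal and was -0.78 with the pseudocount of 64, under 2-fold.

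Of the binding-protein genes, 2 were at least 2-fold apart and 4 were under 2-fold, with Igfbp6 between the pair and the rest. Igfbp3, which encodes the main carrier of IGFs in the circulation, read 228 in MatDup.dist7 against 953 in PatDup.dist7. This was a log2 difference of -1.99, or 3.97-fold, and the probe set stood at percentiles 77.1 and 94.2. Igfbp5, which encodes a binding protein deposited in the matrix of muscle and bone, had 56.6 and 187. Its log2 difference was -1.48, or 2.80-fold, and its percentiles were 45.3 and 73.8. Toward PatDup.dist7, Igfbp3 took place 37 and Igfbp5 place 138 of the 19938 genes. These places move with the pseudocount, to 538 and 738 with 1 and to 8 and 69 with 64. Both genes stayed at least 2-fold apart under all 7 alternatives. Of these, leaving out values under 1 and taking the strongest probe set leave the differences of both genes unchanged by construction.

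The promoters of these 2 genes are shown because both were higher on the same array. They are not alike in base composition (RefSeq, GRCm38.p6, window and capitals as for Igf2).
Igfbp3, chr11:7213874-7214173, minus strand: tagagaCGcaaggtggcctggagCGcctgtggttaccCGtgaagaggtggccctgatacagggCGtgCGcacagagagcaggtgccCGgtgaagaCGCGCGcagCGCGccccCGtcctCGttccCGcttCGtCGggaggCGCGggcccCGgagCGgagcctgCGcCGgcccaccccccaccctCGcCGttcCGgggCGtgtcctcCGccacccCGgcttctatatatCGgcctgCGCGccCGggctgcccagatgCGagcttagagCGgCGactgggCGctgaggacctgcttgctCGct
Igfbp5, chr1:72874816-72875115, minus strand: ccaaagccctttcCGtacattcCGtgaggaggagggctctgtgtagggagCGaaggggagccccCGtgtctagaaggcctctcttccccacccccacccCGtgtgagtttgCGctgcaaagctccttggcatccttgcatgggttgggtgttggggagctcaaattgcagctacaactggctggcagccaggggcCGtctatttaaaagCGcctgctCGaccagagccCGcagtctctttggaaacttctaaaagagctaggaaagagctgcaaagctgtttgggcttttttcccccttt
The Igfbp3 window held 37 CpG dinucleotides and 71.7% G and C, with more CpG than 94.4% of all windows. The Igfbp5 window held 10 and 56.3%. Among the 14 windows of the 10 genes the count ran from 2 at the first Igf2 start to 48 at Igf1r, whose transcript was level between the arrays.

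Of the remaining binding-protein genes, Igfbp6 differed most. Its product binds IGF-II in preference to IGF-I. Igfbp6 read 196 in MatDup.dist7 against 340.4 in PatDup.dist7, a log2 difference of -0.75 or 1.68-fold. Igfbp7, whose product is a more distant relative that binds IGFs weakly, had 3056 and 3760.5 (log2 difference -0.30) and stood at percentiles 98.6 and 98.9. Igfbp2, a binding protein abundant in the fetus, had 553 and 656 (-0.24). Igfbp4, whose product holds IGFs back until the protease PAPP-A cuts it, was the one binding-protein gene of the 6 with the higher signal in MatDup.dist7, at 633 and 505 (0.32). The last 3 differences were smaller than the spread between probe sets. Probe sets differ in how well they bind, so their intensities and percentiles do not order these genes by transcript number.

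**Figure D3:**
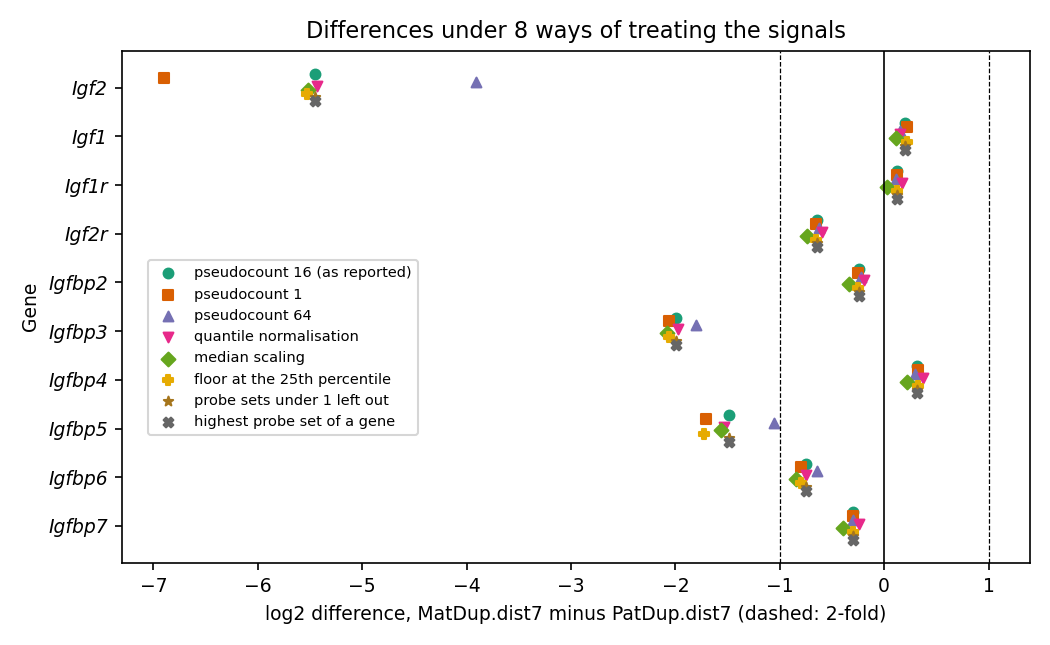
The log2 difference (MatDup.dist7 minus PatDup.dist7, horizontal axis) of each of the 10 IGF genes as reported and under 7 other treatments of the signals, with dashed lines at 2-fold. Igf2 runs from -6.90 to -3.91, Igfbp3 from -2.08 to -1.80 and Igfbp5 from -1.72 to -1.06. Each gene keeps its side of 0, which only quantile and median scaling could have changed.

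The gene whose pair of levels was nearest to that of Igf2 was Col10a1, a collagen gene of hypertrophic cartilage. Genes whose symbols are Gm or Rik numbers were left out of this search. Likeness was measured as the straight-line distance between the genes' log2 levels over the 2 arrays, and with 2 arrays it says only that both signals were similar. Col10a1 lay at a distance of 1.54 from Igf2, with 43.7 and 595. It was followed by the granzyme gene Gzme at 1.95, Plekhg1 at 2.10, the complement inhibitor gene Cd59a at 2.16 and the neurotrophic factor receptor gene Gfra1 at 2.18. Their log2 differences ran from -3.35 for Col10a1 to -2.39 for Gfra1. That all were smaller in size than the -5.45 of Igf2 follows from the first place of Igf2 toward PatDup.dist7.

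Other genes of the IGF axis went both ways. Of 17 listed ligand, receptor, adaptor and imprinted regulator genes beyond the 10, 14 had a value. H19, Igf2os and Ins1 had none here. Of the 14, 8 lay on the PatDup.dist7 side and 6 on the MatDup.dist7 side, with a median log2 difference of -0.38. Igfbp1, a binding-protein gene of liver, was 2.40-fold higher in MatDup.dist7 (66.7 and 18.4, log2 difference 1.27), and Airn was the gene at least 2-fold higher in PatDup.dist7. The Igfbp1 signal barely passed the filter, and its difference was 0.67 with the pseudocount of 64. Genes named next were picked after their values were seen. Insr, the insulin receptor gene, had 174 and 240.4 (-0.43), and the docking-protein gene Irs1, through which both receptor kinases signal, had 187 and 255 (-0.43). Plagl1, an imprinted zinc-finger gene, had 146 and 282 (-0.88), and Grb10, an imprinted adaptor gene that restrains receptor signalling, had 3103 and 2612 (0.25).

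Genes for proteins that cut the binding proteins, or restrain that cutting, lay mostly on the PatDup.dist7 side. Of 16 measured, 11 were higher in PatDup.dist7 and 3 of them at least 2-fold. With quantile normalisation, with the floor at the 25th percentile or with values under 1 left out, 10 of the 16 lay on that side. The list median was -0.37. Htra1, a secreted serine protease gene, had 344 and 1221 (-1.78). Differences of like size were seen for Mmp13 (53.3 and 256, -1.97) and Mmp3 (89.1 and 342, -1.77), both metalloproteinase genes. Pappa, which encodes the PAPP-A protease and was picked after its value was seen, had 1093 and 2015 (-0.87). Stc2, which encodes stanniocalcin-2, an inhibitor of PAPP-A, was the only gene of this list at least 2-fold higher in MatDup.dist7, at 60.7 and 19.8 (1.10, or 0.57 with the pseudocount of 64), under the signal filter. Its relative Stc1, like Stc2 picked after its value was seen, had 81.2 and 40.8 (0.77).

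Genes of mannose-6-phosphate sorting, the lysosomal pathway that shares the receptor of Igf2r, showed a similar split. Of 12 listed genes 11 had a value, 9 were higher in PatDup.dist7, and 2 were at least 2-fold so, with a list median of -0.32. These were Gnptg (64.8 and 194, -1.38), which encodes a subunit of the enzyme that begins the mannose-6-phosphate tag, and Nagpa (70.6 and 170, -1.10), which encodes the enzyme that uncovers it. Nagpa was at -0.80 with the pseudocount of 64. In the CCN family, matrix proteins related to the binding proteins, 5 of 6 genes were higher in PatDup.dist7, with a median of -0.18. Ccn3 was the one beyond 2-fold, at 9.71 and 74.2 (-1.81, or -0.91 with the pseudocount of 64). The 2 measured Igf2 mRNA-binding protein genes had 136 and 105 (Igf2bp1, 0.26) and 117 and 201 (Igf2bp3, -0.71).

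For genes downstream of the receptors, the split between the arrays depended on the scaling. In the PI3K, AKT and FOXO list, 11 of 19 measured genes were higher in PatDup.dist7, with a median of -0.04. After quantile normalisation 9 of the 19 lay on that side and the median was 0.02, and with median scaling 14 did and the median was -0.14. Pik3r3, a regulatory subunit gene of PI3-kinase, was the one gene at least 2-fold apart, at 237 and 99.0 (1.14, or 0.88 with the pseudocount of 64). In the RAS and ERK list, 5 of 10 measured genes lay on each side, with a median of -0.03 and none beyond 2-fold. With median scaling, 8 of these 10 lay on the PatDup.dist7 side and the median was -0.12. Dusp6, an ERK phosphatase gene and the list's strongest signal, had 1049 and 1113 (-0.08). Beside all of these counts stand the shares over all genes, 3.16% toward PatDup.dist7 and 4.47% toward MatDup.dist7 at 2-fold. Median scaling turned this order, to 3.98% and 3.76%.

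**Figure D4:**
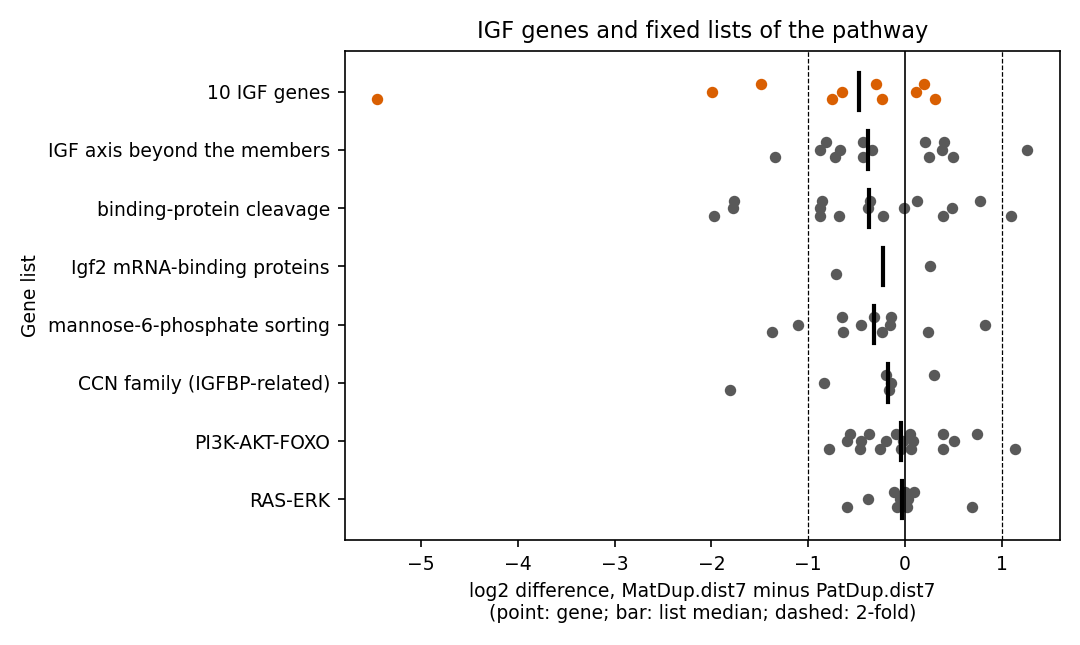
The log2 difference (MatDup.dist7 minus PatDup.dist7) of the 10 IGF genes and of the measured genes in 7 fixed lists of the pathway, 1 point per gene with a bar at the list median and dashed lines at 2-fold. The IGF gene median is -0.47, and the medians of the downstream lists PI3K-AKT-FOXO and RAS-ERK are -0.04 and -0.03.

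The cultures gave strong fibroblast signals on both arrays and also differed in other ways. The 11 fibroblast markers had a summed intensity of 41613 for MatDup.dist7 and 47619 for PatDup.dist7, 8 of them higher in PatDup.dist7 and none beyond 2-fold, though Fap and Lum lay under the signal filter. The 4 cartilage markers were all higher in MatDup.dist7, with summed intensities of 873 and 268 and 2 of 4 beyond 2-fold, Col2a1 and Comp. Neither Comp nor Acan passed the signal filter, and 1 of the 4 was beyond 2-fold with the pseudocount of 64. Col10a1, the collagen gene of hypertrophic cartilage named above and not in this list, went the other way (43.7 and 595, -3.35). Cartilage genes thus did not all lie on the same side. The 6 macrophage markers summed to 2729 and 3170.5, with 4 higher in PatDup.dist7 and Adgre1 (548 and 273) and Csf1r (855 and 746) higher in MatDup.dist7. Mrc1 was the one beyond 2-fold (31.7 and 103), and none was with the pseudocount of 64. The 5 liver markers, a tissue rich in Igf2 in the embryo, summed to 1094 and 907. All 5 were higher in MatDup.dist7, or 3 of 5 with quantile or median scaling. The defining marker Alb was listed at 18.7 and 0.0051 (1.12), beyond 2-fold but under the signal filter. The 4 neural markers summed to 974 and 619.9, with 3 higher in MatDup.dist7. The 4 epithelial markers summed to 603 and 416, with all 4 higher in MatDup.dist7. The 5 endothelial markers summed to 338 and 357, with 2 higher in MatDup.dist7, and the 5 skeletal muscle markers to 2568 and 2202, with 3. None of the neural, epithelial, endothelial or skeletal muscle markers was beyond 2-fold. Xist, which coats the inactive X chromosome, stood at 0.00166 and 91.2, and the Y-linked Eif2s3y had 112 and 6.44, so sex and genotype cannot be told apart for any gene here. The part of cell makeup in the IGF differences was not tested, and in such cultures fewer cells of a type and less RNA per cell cannot be told apart.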

How the data were processed

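Transcript levels were measured in 2 MEF cultures, 1 array each. The deposited values are linear intensities, 1 for each probe set on each array. Affymetrix Expression Console made them, per the submitters' processing notes; its version, background correction, summarisation and normalisation are not stated there. Values under 1 (4.78% of MatDup.dist7 and 5.03% of PatDup.dist7 probe sets) were kept. Median intensities were 68.6 and 64.2. Of 35557 probe sets, 21789 had 1 gene symbol, 1621 several and 12147 none. Only the first were used, 21698 of them matched to a gene of GRCm38.p6, whose symbols were then used; the table's build is unknown, so only gene order and RefSeq sequence windows use that assembly. Intensities were transformed to log2(intensity + 16), probe sets of a gene were averaged, and differences are MatDup.dist7 minus PatDup.dist7. The 2-fold rule is a size, not a test, and no p-value was computed. The signal filter is the 50th percentile of all values. An older symbol was used only where it is no current symbol and names 1 gene.

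The 10 genes, the lists and the rules were chosen with earlier results of these data known. Named genes were the 10 and list genes at least 2-fold apart above the filter (up to 4 a list, otherwise the strongest). The 5 genes nearest to Igf2 were also named, leaving out symbols that are Gm or Rik numbers. Other named genes are said to be picked later, except the cell markers, sex-linked genes and the neighbours of members, given as context. The calculations were tested on simulated data. Alternatives were pseudocounts of 1 and 64, quantile and median scaling, a floor at the 25th percentile, leaving out values under 1, the strongest probe set of a gene, a 3-fold rule and the signal filter. Python 3.11.15 with numpy 2.4.6 and pandas 2.3.3 was used.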

Additional observations from a re-analysis of the deposited data

How the results depend on the processing

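The direction of each of the 10 differences was the same under the 7 alternatives for pseudocount, scaling, low signals and probe sets. Only quantile and median scaling could have reversed a direction, because the other alternatives keep the order of the signals of a gene with 1 probe set. Of 70 recomputed differences, 67 moved by less than 0.40, the spread between probe sets of a gene. The 67 include those from leaving out values under 1 and from the strongest probe set. For these genes, with 1 probe set each and no value under 1, both equal the reported differences by construction. The 3 that moved further were Igf2 at -6.90 with a pseudocount of 1 and -3.91 with 64, and Igfbp5 at -1.06 with 64; a larger pseudocount shrinks differences of low signals by construction. The count of IGF genes at least 2-fold higher in PatDup.dist7 was 3 under these 7 alternatives and 2 at 3-fold, without Igfbp5. The signal filter could not change it, since Igf2 and Igfbp5 pass through the array where they are high. Leaving out values under 1 and taking the strongest probe set could not change it either. Over all genes the counts toward PatDup.dist7 and MatDup.dist7 were 631 and 891 as reported, 1704 and 2183 at pseudocount 1, then 80 and 93 at 64, with 738 and 774 after quantile normalisation and 794 and 750 after median scaling, which turned the excess. The number of arrays limits every value, and low signals such as Igf2 in MatDup.dist7 have no reliable size. No paired analysis was possible because each genotype has 1 array, and for the same reason no replicate could be left out.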

Other observations

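The IGF binding-protein genes include a pair of direct neighbours on each of chromosomes 1 and 11, and the members of each pair differed unequally. On chromosome 11, Igfbp1 (66.7 for MatDup.dist7 and 18.4 for PatDup.dist7, log2 difference 1.27) stands next to Igfbp3 (228 and 953, -1.99), so these adjacent genes had their excess on opposite arrays. On chromosome 1, Igfbp2 (553 and 656, -0.24) stands next to Igfbp5 (56.6 and 187, -1.48), and both had the higher signal in PatDup.dist7. These pairs were picked after their values were seen.

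Igf1os, a non-coding RNA gene of the Igf1 locus, read 16.6 in MatDup.dist7 against 0.261 in PatDup.dist7, both weak signals, while Igf1 itself had 158 and 136. The 2 probe sets of Igf2bp1 had 78.8 and 77.4 (0.02) and 194 and 133 (0.50), so they differed from each other by about the spread between probe sets of a gene.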
